A study of Homo sapiens with 14 samples.

Results

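MicroRNAs (miRNAs) of extracellular vesicles (EVs) were compared between epicardial cells stimulated with TGF-β1 and epicardial cells stimulated with basic FGF (bFGF), 2 factors known to induce the epithelial-to-mesenchymal transition of the epicardium. The comparison was set by the sample labels and used no measured value: 4 TGFb libraries (replicates 1 to 4) against 3 FGF libraries (replicates 2 to 4), 7 of the 14 libraries of the series. The other 7 libraries came from cells with no additive (NT, 3 libraries) or with the TGF-β receptor inhibitor SB-431542 (SB, 4 libraries), and they entered the statistical fit to give a common estimate of the spread. All of the cells were cryopreserved pro-epicardial cells without GFP, made from the established human embryonic stem line hES-2, and were plated in supplemented StemPro medium.

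The TGFb group was given TGF-β1 at 5 ng/ml during the first 4 days and nothing during the next 4 days. The FGF group was given bFGF at 10 ng/ml throughout the 8 days. Both groups lacked SB-431542. From day 4 the medium was first passed through a 100 kDa filter, which depletes EVs already in it, and medium conditioned for 48 h was collected on days 6 and 8. By these labels the TGFb medium was therefore collected after TGF-β1 had been withdrawn, whereas bFGF was still present during collection, so agent and timing cannot be told apart. The cells come from 1 line, and the labels do not say whether replicates were separate differentiations, so p-values measure the spread between these samples, which may be technical. EVs were precipitated with polyethylene glycol before RNA extraction.

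EVs are membrane particles that cells release with proteins and RNA inside, and the miRNAs in them are among the signals that cells of the heart exchange. A miRNA is a short RNA that, bound to an Argonaute protein, lowers translation or stability of messenger RNAs. It finds them mainly through its seed, bases 2 to 8 from the 5′ end, so miRNAs with 1 seed share many targets. TGF-β signals through SMAD proteins and FGF through receptor tyrosine kinases and ERK, and both routes are known to act on miRNA genes.

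The mature miRNAs that the comparison turned on, with their nearest relatives, are given 5′ to 3′ with the seed in capitals (mature sequences of RefSeq, GRCh38.p14, in which 43 of the 47 tested miRNAs were matched by name). The first 3 are products of 1 cluster of genes that spans 728 bases of the plus strand, chr19:51692612-51693339, in an intron of SPACA6 and on the strand opposite to an exon of the long non-coding RNA SPACA6P-AS. They are shown because the cluster took a larger share of counts in every TGFb library. The next 2 differ little from members of the cluster and serve to compare close relatives. The last 4 had higher shares in each FGF library than in any TGFb library (miR-21-5p, miR-143-3p, miR-1290), or share a stretch with one that had (miR-1246).
miR-99b-5p: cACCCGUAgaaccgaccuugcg
let-7e-5p: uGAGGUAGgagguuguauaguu
miR-125a-5p: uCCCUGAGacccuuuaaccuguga
let-7a-5p: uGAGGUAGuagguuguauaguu
miR-125b-5p: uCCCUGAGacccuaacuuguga
miR-21-5p: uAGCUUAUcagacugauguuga
miR-143-3p: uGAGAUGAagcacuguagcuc
miR-1290: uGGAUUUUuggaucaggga
miR-1246: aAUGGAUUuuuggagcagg

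let-7e-5p and let-7a-5p carry 1 seed, GAGGUAG, and differ at 1 of 22 positions (G9U, counted from the 5′ end, let-7e-5p first). miR-125a-5p and miR-125b-5p carry the seed CCCUGAG. Compared base by base from the 5′ end with no gap, they differ at 7 of 22 positions. Their lengths differ (24 and 22 bases), and an alignment with a gap would leave fewer differing bases. miR-1290 and miR-1246 have different seeds, but both hold the run UGGAUUUUUGGA of 12 bases, from base 1 in miR-1290 and from base 3 in miR-1246. MIR21 lies on chromosome 17 in an exon of VMP1 (mature miRNA at chr17:59841273-59841294, plus strand). MIR143 lies on chromosome 5 within an exon of CARMN, a long non-coding RNA (chr5:149428978-149428998, plus strand), and miR-1290 maps to chr1:18897078-18897096 on the minus strand. How the authors divided reads between near-identical miRNAs is not given in the sources used here, so the split within the let-7 family and within miR-125 is uncertain.

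The libraries were shallow. TGFb replicates 1 to 4 held 1418, 231, 7478 and 2770 counts, and FGF replicates 2 to 4 held 115, 3241 and 868. The TGFb library was the deeper one in each shared number, by 2.01 times in number 2, 2.31 times in number 3 and 3.19 times in number 4. A single count was 0.870% of FGF replicate 2, the shallowest library, and 0.0134% of TGFb replicate 3, the deepest. Levels are therefore given as the share of each library's counts, in percent, and a share says nothing of how many vesicles or cells stood behind it: fewer vesicles and less miRNA in each cannot be told apart. Mean totals of 2974 ± 3177 (SD, n = 4) and 1408 ± 1631 (SD, n = 3) did not differ beyond this spread (exact permutation test, two-sided, p = 0.543, where the smallest p that 4 against 3 libraries allow is 0.0286).

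Few miRNAs held a large part of the counts, from 42.9% for the 10 most abundant in FGF replicate 4 to 75.5% in TGFb replicate 3. The 10 most abundant miRNAs of each library took a mean of 67.1% of counts (SD 9.60, n = 4) in TGFb and 51.9% (SD 7.86, n = 3) in FGF, a difference of 15.2 percentage points that did not pass the two-sided exact permutation test (p = 0.114). In the authors' adjusted table the difference was 13.4 points and reached the smallest p the exact permutation test allows (p = 0.0286). At an equal depth of 115 counts, 38.3 ± 6.72 miRNAs (SD, n = 4) were expected in TGFb and 45.7 ± 6.86 (SD, n = 3) in FGF, which did not differ beyond the spread (exact permutation test, two-sided, p = 0.229).

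**Figure D1:**
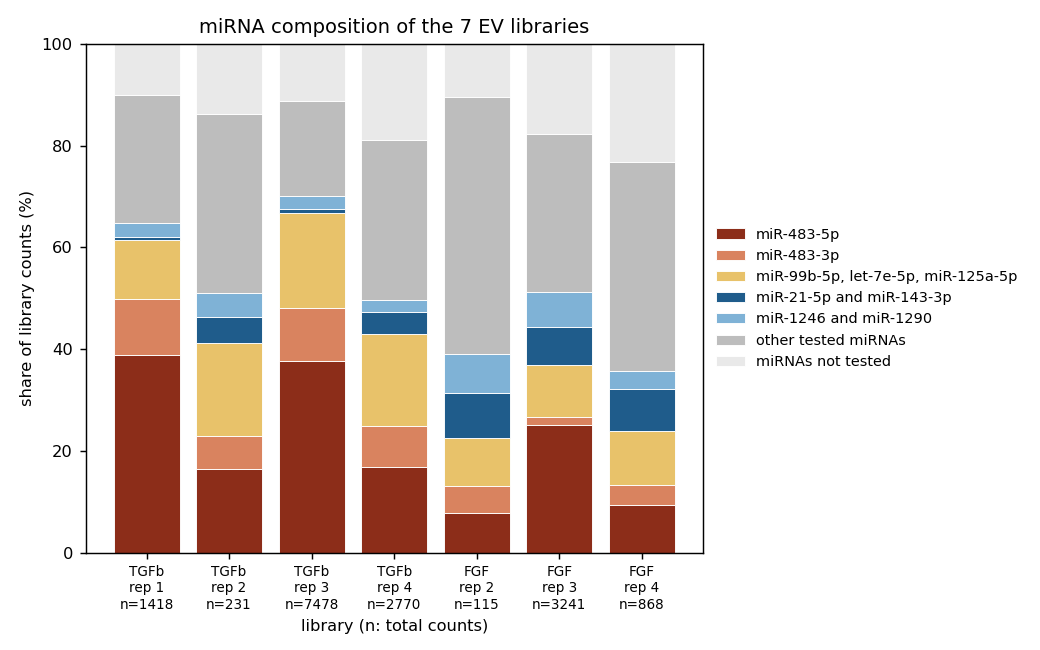
Composition of the 7 libraries. Each bar is 1 library, with its total count (n) under it, and the y axis is the share of counts in percent; colours stand for the miRNAs or sets named in the key. The 2 miR-483 miRNAs took 22.9% to 49.9% of counts in the TGFb libraries and 13.0% to 26.7% in the FGF libraries, and miR-21-5p with miR-143-3p filled a wider band in each FGF bar than in any TGFb bar.

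Of 2632 miRNAs in the table, 309 had a count in these 7 libraries, 26 of them in all 7. After a filter on low counts 47 miRNAs could be tested, and 262 could not. The 47 held 81.2% to 89.9% of the counts of a TGFb library and 76.7% to 89.6% of an FGF library. Fold changes below are TGFb over FGF on the log2 scale, from edgeR's quasi-likelihood test with TMM scaling.

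No miRNA differed past an adjusted p of 0.05: 0 of 47 (0%). At an unadjusted p under 0.05 there were 7 (14.9% of those tested), 6 higher in TGFb and 1, miR-1290, higher in FGF. The 6 were miR-483-3p, miR-483-5p, miR-744-5p, miR-4488, let-7e-5p and miR-125a-5p. The median log2 fold change of the 47 was −0.06, with 21 above 0 and 26 below. Without scaling for composition the median was −0.70, a shift of −0.64, so a fold change of that size depends on the scaling.

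With the replicate number as a block in the fit, 2 of 47 passed (4.26%), the pair made from the MIR483 hairpin, both higher in TGFb. That fit spans all 14 libraries, and over all groups 15 of 18 pairs of libraries with 1 number deviated together (correlation over 0.1), so the pairing behind these calls was not uniform. For miR-483-3p the blocked log2 fold change was 1.86 (SE 0.48, edgeR adjusted p = 0.0122), and for miR-483-5p it was 1.31 (SE 0.28, edgeR adjusted p = 0.00224). DESeq2 called 1 (2.13%), miR-483-3p, without the block. With the block, both calls were lost without FGF replicate 2 and without FGF replicate 3 (0 calls each), miR-483-5p was lost without FGF replicate 4 (1 call, miR-483-3p at 2.72), and miR-125a-5p was added without TGFb replicate 1 (3 calls). Without the block, miR-483-3p became the single call when TGFb replicate 2 or NT replicate 4 was left out.

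miR-483-3p and miR-483-5p are the 2 arms of a hairpin encoded in an intron of IGF2, the gene of a fetal growth factor. The share of miR-483-3p was 11%, 6.49%, 10.3% and 7.98% in TGFb replicates 1 to 4, and 5.22%, 1.60% and 4.03% in FGF replicates 2 to 4. Every TGFb library lay above every FGF library. The means were 8.95% ± 2.09 (SD, n = 4) and 3.62% ± 1.84 (SD, n = 3), with a log2 fold change of 2.01 (SE 0.55) that just missed the threshold without the block (edgeR adjusted p = 0.0550). The gap between the groups rests on the shallow number 2, where 15 of 231 counts (95% Wilson interval 3.97% to 10.4%) stood against 6 of 115 (2.41% to 10.9%). The Wilson intervals here and the exact intervals below cover counting error only, not the spread between replicates.

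miR-483-5p had the highest mean share of the 47 tested miRNAs. Its share was 38.9%, 16.5%, 37.7% and 16.9% in TGFb replicates 1 to 4 and 7.83%, 25.1% and 9.33% in FGF replicates 2 to 4. The groups overlapped, since FGF replicate 3 lay above TGFb replicates 2 and 4, yet within each shared number TGFb was the higher. The means were 27.5% ± 12.5 (SD, n = 4) and 14.1% ± 9.54 (SD, n = 3), with a log2 fold change of 1.47 (SE 0.66, edgeR adjusted p = 0.279 without the block). Without FGF replicate 3 it was 2.90 (edgeR adjusted p = 0.212, no block).

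The balance of the 2 arms set 1 library apart. The 5p count was 2.11 to 3.65 times the 3p count in the 4 TGFb libraries, and 1.50 and 2.31 times in FGF replicates 2 and 4. In FGF replicate 3 it was 15.6 times, from 812 counts of miR-483-5p and 52 of miR-483-3p. The difference of miR-483-3p was widest in number 3, at 6.44-fold (95% exact interval on counts 4.86 to 8.70), against 1.98-fold (1.38 to 2.91) in number 4 and 1.24-fold (0.456 to 3.92) in number 2.

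The miR-125a cluster, with miR-99b and let-7e, took more of the counts in every TGFb library than in any FGF library. Its 4 detected products together held 11.7%, 18.2%, 18.9% and 18.2% of TGFb replicates 1 to 4 and 9.57%, 10.5% and 10.8% of FGF replicates 2 to 4. All 3 tested members had a log2 fold change above 0, with a median of 1.33 beside −0.06 over all 47, and 2 of the 3 had an unadjusted p under 0.05. No member passed the adjusted threshold. The cluster was singled out by earlier work on these libraries, so its direction is a description and not independent evidence.

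miR-125a-5p, a homologue of the worm timing gene lin-4, led the cluster. Its share was 5.64%, 9.96%, 9.91% and 10.1% in TGFb replicates 1 to 4 and 6.09%, 4.60% and 3.57% in FGF replicates 2 to 4. TGFb replicate 1 lay within the FGF range, and the other 3 TGFb libraries lay above it. The log2 fold change was 1.46 (SE 0.55, edgeR adjusted p = 0.278). In numbers 2 to 4 the TGFb share was 1.64, 2.16 and 2.83 times the FGF share, and the count intervals of numbers 3 and 4 (1.81 to 2.59 and 1.95 to 4.25) left out equality while that of number 2 (0.680 to 4.51) did not. Each interval sets 1 library against 1 and holds counting error only.

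let-7e-5p belongs to the let-7 family, known for holding back growth genes during development. Its share was 2.75%, 4.33%, 4.36% and 5.63% in TGFb replicates 1 to 4 and 1.74%, 2.01% and 3.11% in FGF replicates 2 to 4, so TGFb replicate 1 again overlapped with FGF. The log2 fold change was 1.33 (SE 0.55, edgeR adjusted p = 0.278). Within numbers 2, 3 and 4 the share was 2.49, 2.17 and 1.81 times as high in TGFb, the narrowest spread of the 3 cluster members. The value of number 2 rests on 10 and 2 counts, and its exact interval (0.530 to 23.4) held equality. The intervals of numbers 3 and 4 (1.66 to 2.88 and 1.20 to 2.83) left it out. With an interval this wide in number 2, the closeness of the 3 values says little about how even the difference was. miR-99b-5p, whose family is known to target mTOR, showed less: 3.10%, 3.90%, 4.49% and 2.42% in TGFb against 1.74%, 3.52% and 3.92% in FGF. Its log2 fold change was 0.57 (SE 0.53, edgeR adjusted p = 0.888), and in number 4 the FGF share was 1.62 times the TGFb share.

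When the fit was restricted to numbers 2 to 4 of these groups with the number as a block, miR-125a-5p and let-7e-5p passed beside the miR-483 pair, 4 of 47 in all (8.51%). The log2 fold change of miR-125a-5p was then 1.87 (SE 0.31, edgeR adjusted p = 0.0265) and that of let-7e-5p 1.72 (SE 0.40, edgeR adjusted p = 0.050, just under the threshold). Fitted on the 7 libraries without a block, 3 of the 31 miRNAs then tested passed (9.68%): miR-483-3p, miR-125a-5p and let-7e-5p.

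**Figure D2:**
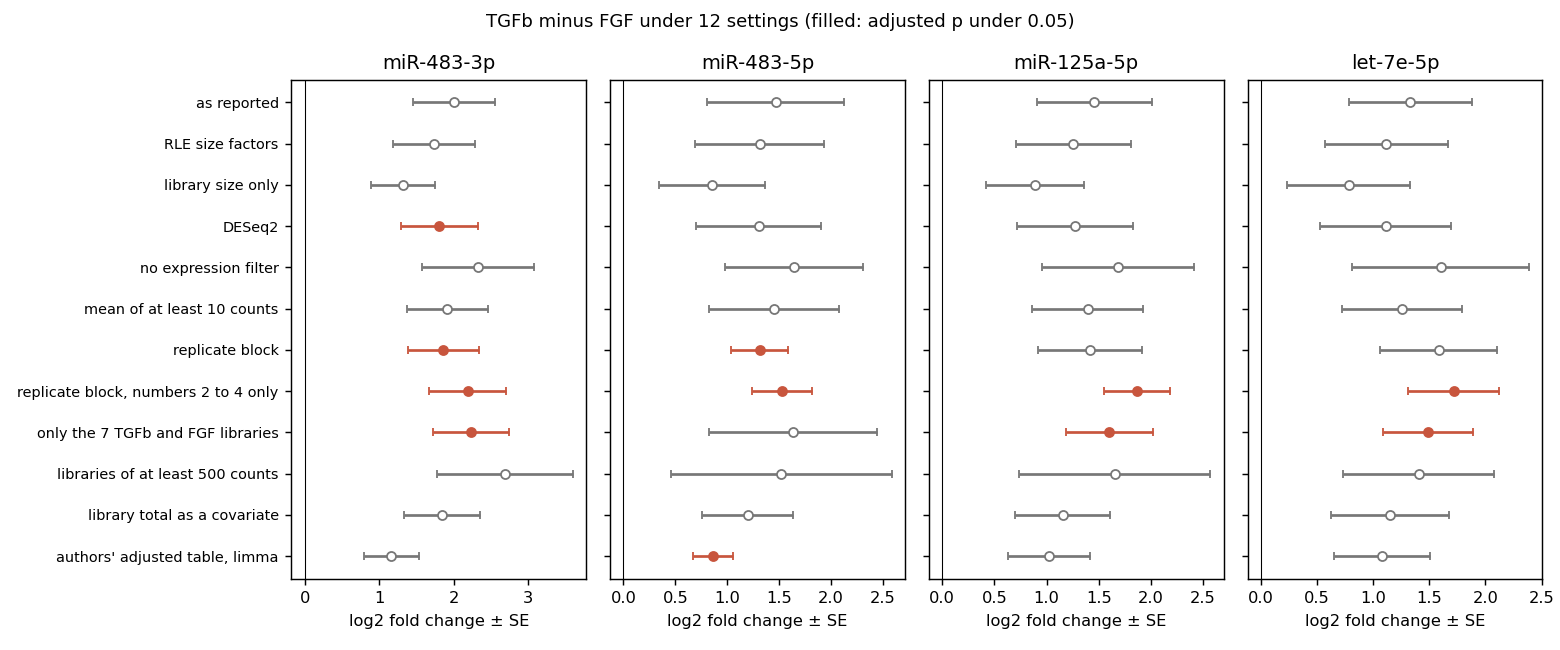
The 4 miRNAs called in at least 1 setting, under 12 settings of the analysis. The x axis is the log2 fold change of TGFb over FGF with its standard error; filled symbols mark an adjusted p under 0.05, open symbols a p of 0.05 or more. All symbols lie above 0, from 0.78 for let-7e-5p without composition scaling to 2.69 for miR-483-3p in libraries of at least 500 counts, and each miRNA has both filled and open symbols.

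The closest relatives of these miRNAs had smaller fold changes, each within about 1 SE of 0. miR-125b-5p, with the seed of miR-125a-5p, had 1.06% to 3.90% of counts in TGFb and 1.91% to 5.22% in FGF. Its log2 fold change was 0.18 (SE 0.64, edgeR adjusted p = 0.970) and turned to −0.36 without composition scaling. The let-7 family other than let-7e took 1.26% to 7.79% of counts in TGFb and 1.38% to 7.83% in FGF, and of its 4 tested members 3 lay above 0 and 1 below, with none called. let-7a-5p, which differs from let-7e-5p at G9U, had a log2 fold change of 0.81 (SE 0.90, edgeR adjusted p = 0.888). The differences in fold change between these relatives were not tested.

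miR-744-5p and miR-4488 completed the miRNAs with a low unadjusted p and rest on few counts. miR-744-5p held 0.494%, 0.433%, 0.254% and 0.758% in TGFb replicates 1 to 4. In FGF it was at 0.216% in replicate 3, from 7 counts, and at 0 in replicates 2 and 4, where a count of 0 allows up to 2.61% and 0.346%. The groups did not overlap, with a log2 fold change of 2.34 (SE 1.13, edgeR adjusted p = 0.323). miR-4488 was at 2.75% in TGFb replicate 1, and at 0.160% to 0.866% in the other 3 TGFb libraries, within the FGF range of 0.123% to 0.870%. The fit gave a log2 fold change of 2.47 (SE 1.07, edgeR adjusted p = 0.278), and of 1.12 without TGFb replicate 1 (edgeR adjusted p = 0.937). In the authors' adjusted table its log2 fold change was 0.35.

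In the other direction, 5 of 47 miRNAs (10.6%) had a higher share in each FGF library than in any TGFb library, against 2 (4.26%) in which TGFb was the higher throughout. The 5 were miR-21-5p, miR-143-3p, miR-1290, miR-423-5p and miR-320a-3p, and the 2 were miR-483-3p and miR-744-5p. None of the 5 passed an adjusted threshold in the fits made.

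miR-21-5p, an ERK-inducible miRNA that is abundant in fibroblasts and known from heart fibrosis, stood at 0.494%, 3.90%, 0.629% and 3.61% in TGFb replicates 1 to 4. In FGF replicates 2 to 4 it stood at 6.09%, 5.21% and 6.34%. The 3 FGF libraries lay close together, whereas the TGFb libraries split into replicates 1 and 3 near 0.5% and replicates 2 and 4 near 4%. The highest TGFb share, that of replicate 2, is 9 of 231 counts (95% Wilson interval 2.06% to 7.24%). This interval takes in every FGF share, so counting error in that library alone could close the gap to FGF. The means were 2.16% ± 1.85 (SD, n = 4) and 5.88% ± 0.589 (SD, n = 3), so the FGF mean was 2.73 times the TGFb mean, and the log2 fold change was −1.11 (SE 0.77, edgeR adjusted p = 0.679). Within number 3 the FGF share was 8.30 times the TGFb share (95% exact interval on counts 5.97 to 11.7), and within number 4 it was 1.76 times (1.24 to 2.46). In number 2 it was 1.56 times (0.494 to 4.71), from 9 and 7 counts.

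miR-143-3p, a miRNA of smooth muscle and of cells of mesenchymal type, repeated this order at a lower level. It took 0.0705%, 1.30%, 0.174% and 0.614% of TGFb replicates 1 to 4 and 2.61%, 2.28% and 1.84% of FGF replicates 2 to 4. The mean share was 4.16 times as high in FGF, with a log2 fold change of −1.94 (SE 1.17, edgeR adjusted p = 0.609). In number 3 the FGF share was 13.1 times the TGFb share (7.23 to 25.8, 95% exact interval). The counts there were 74 of 3241 and 13 of 7478. In number 4 it was 3.00 times (1.42 to 6.32). In number 2 it was 2.01 times, from 3 counts in each library, and the interval (0.269 to 14.997) held equality. The highest TGFb share, that of replicate 2, is 3 of 231 counts (95% Wilson interval 0.443% to 3.75%). This interval takes in every FGF share, so counting error alone could close the gap between the groups.

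miR-1290 was scarce in TGFb, at 0.0705%, 0%, 0.227% and 0.289% in replicates 1 to 4, where the 0 of 231 counts in replicate 2 allows up to 1.30%. In FGF it was at 0.870%, 2.16% and 0.691% in replicates 2 to 4, with 1, 70 and 6 counts. The log2 fold change was −2.28 (SE 0.98, edgeR adjusted p = 0.278), and most of the evidence came from number 3, with 17 of 7478 against 70 of 3241 counts. Without FGF replicate 3 it was −0.94. miR-1246, which shares the 12-base run, had 2.09% to 4.76% in TGFb and 2.88% to 6.96% in FGF and a log2 fold change of −0.24 (SE 0.51, edgeR adjusted p = 0.970), which turned to 0.49 without FGF replicate 3.

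miR-423-5p had 0.705% to 1.59% of counts in TGFb and 1.96% to 3.15% in FGF, and miR-320a-3p 0.267% to 0.542% and 0.576% to 0.870%. The groups did not overlap in either. Their log2 fold changes were near 0, −0.53 (SE 0.59) and −0.23 (SE 0.83), and both turned above 0 without FGF replicate 3, to 0.25 and 0.35. miR-92a-3p, a product of the miR-17 to miR-92a cluster and among the 10 most abundant, overlapped between the groups (log2 fold change 0.34, SE 0.47, edgeR adjusted p = 0.952) and turned to −0.14 without composition scaling.

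**Figure D3:**
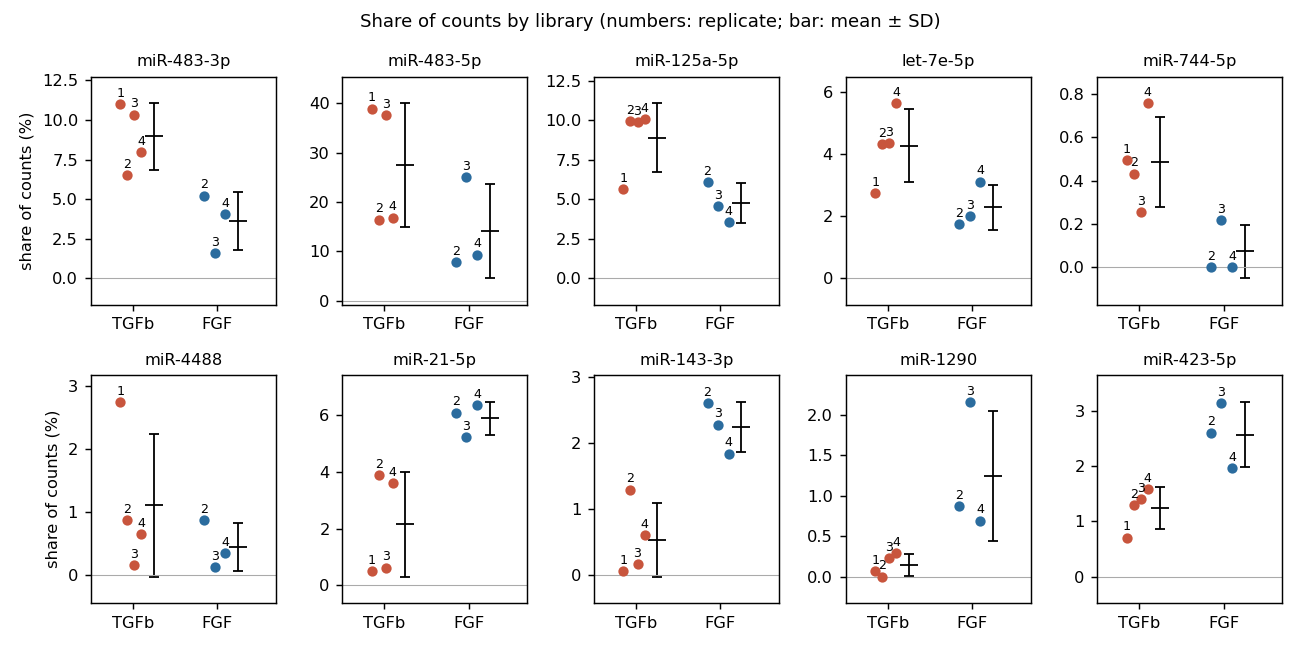
Share of counts (y axis, percent) of 10 miRNAs in each library; points are libraries with their replicate numbers, red for TGFb and blue for FGF, and bars give the mean ± SD. miR-483-3p and miR-744-5p lie higher in every TGFb library, and miR-21-5p, miR-143-3p, miR-1290 and miR-423-5p higher in every FGF library.

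**Figure D4:**
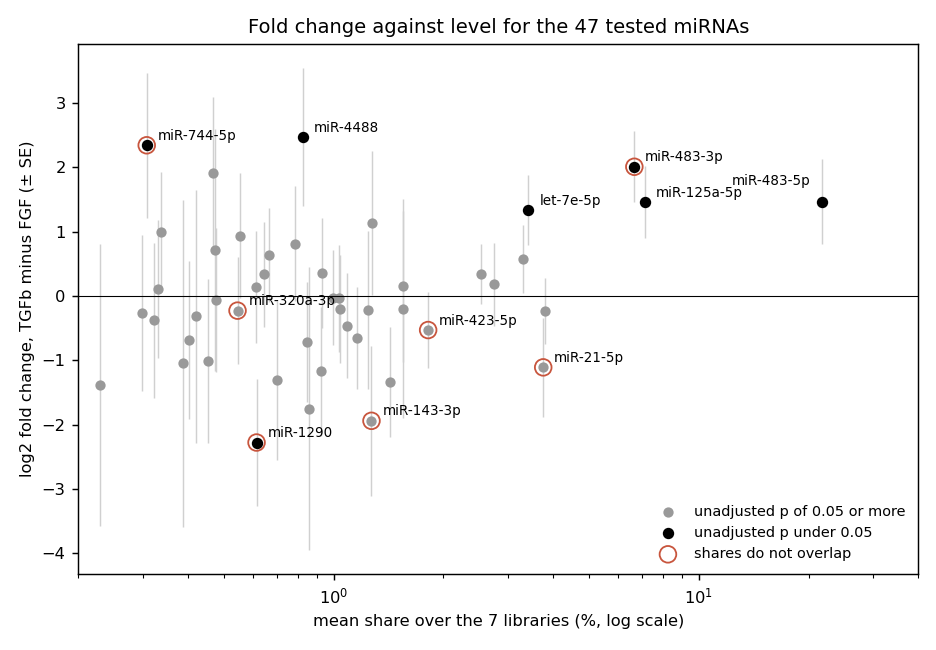
Log2 fold change of TGFb over FGF (y axis, ± SE) against the mean share over the 7 libraries (x axis, percent, log scale) for the 47 tested miRNAs. Black points had an unadjusted p under 0.05 and red rings mark shares that did not overlap. The abundant miRNAs with a low p lie above 0 with short error bars, and below a mean share of about 1% most error bars are wide.

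Since miR-483 took up to 49.9% of a library, shares of other miRNAs were also taken over the counts outside the 2 miR-483 miRNAs, an alternative added after the data were seen. On this scale 6 of 45 miRNAs (13.3%) were higher in each TGFb library: let-7e-5p, let-7a-5p, miR-125a-5p, miR-744-5p, miR-1275 and miR-1307-3p. Higher in each FGF library than in any TGFb library were 3 of 45 (6.67%): miR-1290, miR-143-3p and miR-21-5p. miR-423-5p and miR-320a-3p now overlapped between the groups. miR-125a-5p ran from 11.3% to 19.1% in TGFb and from 4.12% to 7% in FGF, and let-7e-5p from 5.49% to 8.39% and from 2.00% to 3.59%. For miR-21-5p the ranges were 0.986% to 5.06% in TGFb and 7% to 7.31% in FGF, and for miR-143-3p 0.141% to 1.69% and 2.13% to 3.11%. The miR-125a cluster took 23.4% to 36.3% of these counts in TGFb and 11% to 14.3% in FGF.

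Within replicate numbers 2, 3 and 4, the difference in share, TGFb minus FGF, had 1 sign in all 3 numbers for 22 of 47 miRNAs (46.8%). TGFb was higher in 7 (14.9%) and FGF in 15 (31.9%). The 7 were let-7e-5p, let-7a-5p, miR-125a-5p, miR-483-3p, miR-483-5p, miR-744-5p and miR-1275. Among the 15 were miR-1290, miR-143-3p, miR-21-5p, miR-423-5p, miR-320a-3p, miR-1246, miR-30a-5p and miR-103a-3p. A miRNA at 0 in both libraries of a number has a difference of 0 there, so it could be neither among the 7 nor among the 15. A pseudocount of 0.5 was added to each count only for the plotted log2 ratios, not for these signs. In the plotted ratios, a miRNA at 0 in both libraries falls below 0 wherever the TGFb library is the deeper one. It was the deeper one in all 3 numbers. The signs rest on shares of all counts, and miR-483 took more of these in TGFb in each number. It took 22.9%, 48.0% and 24.8% of TGFb replicates 2 to 4 and 13.0%, 26.7% and 13.4% of FGF replicates 2 to 4. The signs were not taken on the counts outside miR-483.

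**Figure D5:**
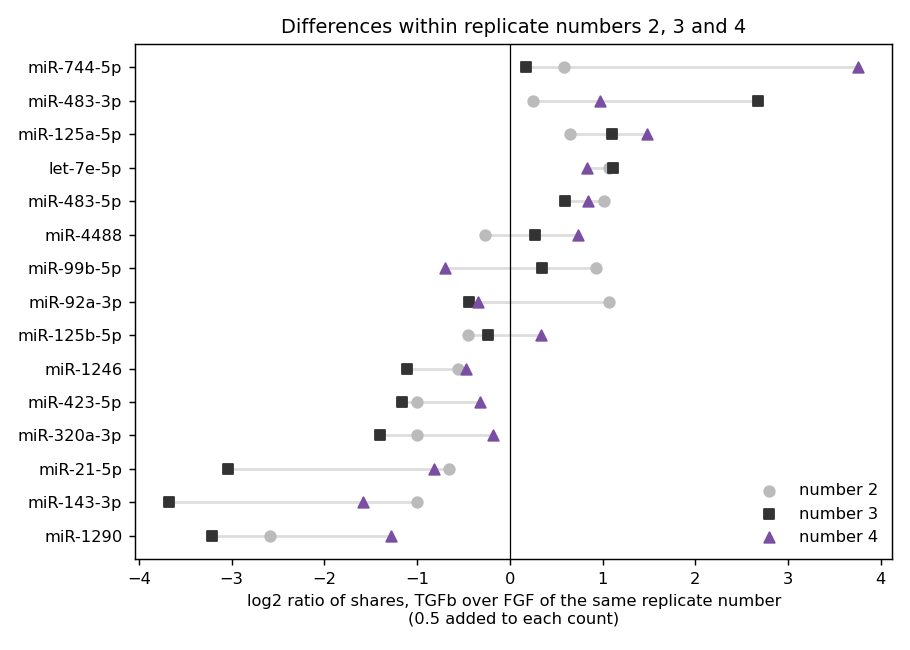
Log2 ratio of the TGFb share to the FGF share of the same replicate number (x axis, 0.5 added to each count) for the 15 miRNAs named by rule; symbols stand for numbers 2, 3 and 4. miR-744-5p, both miR-483 miRNAs, let-7e-5p and miR-125a-5p lie above 0 in all 3 numbers, and miR-21-5p, miR-143-3p and miR-1290 lie farthest below 0 in number 3.

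The miRNAs of epithelial and mesenchymal cells were examined as lists, since both stimuli are used to drive that transition. The mesenchymal list has 14 members, of which 13 had counts and 4 could be tested. As a sum it took 1.97%, 6.49%, 2.17% and 7.58% of TGFb replicates 1 to 4 and 13.0%, 10.4% and 11.9% of FGF replicates 2 to 4. Every FGF library lay above every TGFb library, also outside miR-483 (3.94% to 10.1% against 13.7% to 15%). miR-21-5p had 7 of the list's 15, 169 of its 337 and 55 of its 103 counts in FGF replicates 2 to 4. In TGFb replicates 1 to 4 it had 7 of 28, 9 of 15, 47 of 162 and 100 of 210, and in replicates 1 and 3 miR-181a-5p had more, with 11 and 78. miR-143-3p had 3, 74 and 16 counts in FGF replicates 2 to 4. It had 1, 3, 13 and 17 in TGFb replicates 1 to 4. Both miR-21-5p and miR-143-3p were already named above for shares without overlap, so the list sum is not separate from them. The sum without these 2 miRNAs was not tested. Of the 4 tested members of the list 0 were called, 2 lay above 0 and 2 below (median −0.37).

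Other mesenchymal members had fewer counts than miR-21-5p, which had 394 over the 7 libraries. miR-181a-5p had 180, miR-143-3p 127 and miR-221-3p 81, and any other member had at most 42. miR-199a-3p, known from heart muscle and mesenchyme, had 4, 30 and 1 counts in FGF replicates 2 to 4 and 0, 0, 1 and 6 in TGFb replicates 1 to 4. miR-181a-5p and miR-221-3p had log2 fold changes above 0, at 0.36 (SE 0.85) and 0.94 (SE 0.97), and shares that overlapped between the groups. miR-155-5p had 5 counts over the TGFb libraries and 8 over the FGF libraries, and miR-145-5p, the partner of miR-143, had 1 and 1.

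The epithelial list is led by the miR-200 family, which is known to hold down the ZEB repressors of E-cadherin. All 7 members had counts and 1, miR-205-5p, could be tested (log2 fold change −0.32, SE 1.97, edgeR adjusted p = 0.970). The sum was 0.147% to 1.30% in TGFb and 0.617% to 2.61% in FGF, and the groups overlapped. miR-200c-3p had 18 counts in TGFb replicate 4 and 7 in FGF replicate 4. miR-203a-3p had 16 in FGF replicate 3 and at most 4 in any other library.

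A list of miRNAs known to respond to growth factors and ERK (7 members, 5 with counts) took 0.816% to 4.98% of counts in TGFb and 5.99% to 7.03% in FGF, without overlap. It shares miR-21-5p, miR-31-5p, miR-221-3p and miR-222-3p with the mesenchymal list. miR-21-5p made up 7 of its 7, 169 of 194 and 55 of 61 counts in FGF replicates 2 to 4, and 7 of 16, 9 of 11, 47 of 61 and 100 of 138 in TGFb replicates 1 to 4. Its 2 tested members lay on either side of 0, with a median of −0.09. miR-132-3p and miR-212-3p, products of 1 cluster that ERK and CREB are known to induce, had 0 counts in all 7 libraries.

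The miR-29 and miR-30 families, which target collagens and other matrix genes and which TGF-β is known to lower, overlapped between the groups (1.03% to 1.66% in TGFb and 0.870% to 3.92% in FGF). miR-30a-5p had 2, 1, 6 and 21 counts in TGFb and 1, 14 and 19 in FGF, with overlap (log2 fold change −1.31, SE 1.24, edgeR adjusted p = 0.888). miR-29a-3p had 12 counts in TGFb replicate 4 and at most 2 elsewhere. Further lists overlapped too: the clusters of miR-17 to miR-92a and of miR-106b to miR-25 (2.05% to 5.63% and 4.38% to 5.22%), the miR-15, miR-16, miR-103 and miR-107 set (0.635% to 2.45% and 1.74% to 5.53%), the miR-23, miR-27 and miR-24 set, the miR-10 and miR-196 set, and the clusters of miR-100 and miR-99a. miR-16-5p, which is abundant in most cells, had a mean of 2.30% in FGF and 0.772% in TGFb (log2 fold change −1.33, SE 0.85, edgeR adjusted p = 0.609).

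Markers of other cells were low or overlapped. Pluripotency miRNAs (the miR-302, miR-367 and miR-371 to miR-373 genes, 8 members) had 2 counts, both of miR-302a-3p in TGFb replicate 3. Of the muscle list, miR-1-3p, miR-133a-3p and miR-206 had counts (at most 2 in any library), and the heart miRNAs miR-208a-3p, miR-208b-3p and miR-499a-5p had 0. miR-9-5p, a neural miRNA, took 0.0267% to 3.03% in TGFb and 0.278% to 3.48% in FGF, highest in the 2 shallowest libraries, while the neural miR-124-3p had 0 counts. Hepatic miR-122-5p had 1 to 4 counts in 6 of the 7 libraries. Endothelial miR-126-3p and miR-126-5p together took 0.0535% to 0.866% in TGFb and 0% to 1.04% in FGF.

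Blood cell miRNAs did not overlap as observed shares: 0%, 0%, 0.108% and 0.141% in the TGFb libraries in rising order against 0.185%, 0.230% and 0.870% in the FGF libraries. These are 5 counts in TGFb and 9 in FGF. The 0 of TGFb replicate 2 allows up to 1.30%, above every FGF share, and the 0.870% of FGF replicate 2 is 1 count. The defining red-cell miRNAs miR-451a and miR-144-3p had 0 counts, and 4 of the 7 members had any. On the counts outside miR-483 the ranges overlapped. The part of blood or serum RNA in the FGF-high miRNAs was not tested.

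Among the 262 miRNAs below the filter, which held 10.1% to 18.8% of counts in TGFb and 10.4% to 23.3% in FGF, 110 of all 309 had counts in TGFb alone and 30 in FGF alone. TGFb had 11897 counts in all and FGF 4224, and the part of depth in the longer TGFb list was not tested. With counts in at least 2 libraries of one group and 0 in the other there were 24 and 3. miR-146b-5p led, with 1, 0, 7 and 1 counts in TGFb replicates 1 to 4, or 0.0756% of the pooled TGFb counts, where 0 of 4224 allows up to 0.0710% in FGF. Most of its counts came from replicate 3, and a pooled share takes no account of the spread between replicates. A difference was not tested. miR-146b-5p was followed by miR-143-5p and miR-92b-5p with 6 counts each and by miR-1292-5p and miR-18a-3p with 5. Each of these 4 lay below what a count of 0 allows in FGF, so a difference was not detectable at this depth. For FGF, miR-185-5p had 3 counts and miR-140-5p and miR-223-3p had 2 each.

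The depth of a library moved with the group within each number. Fits with the library total as a covariate and of the deeper libraries are given here for that reason. With the library total as a covariate 0 of 47 passed, and the log2 fold changes were 1.84 for miR-483-3p, 1.20 for miR-483-5p, 1.15 for miR-125a-5p, 1.15 for let-7e-5p, −0.85 for miR-21-5p and −1.61 for miR-143-3p. In the libraries of at least 500 counts (TGFb replicates 1, 3 and 4 and FGF replicates 3 and 4 here) 0 passed as well, at 2.69 for miR-483-3p, 1.65 for miR-125a-5p, −1.49 for miR-21-5p and −2.43 for miR-143-3p. All of these kept their sign. The fit of the deeper libraries kept numbers 3 and 4, where TGFb was still 2.31 and 3.19 times as deep as FGF. The part of depth in these differences was not tested.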

How the data were processed

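Small RNA of EVs was precipitated with the miRCURY kit, extracted with miRNeasy Micro and made into QIAseq libraries, per the labels' protocols. The build is GRCh38, per the submitters' processing notes. The aligner, the counting and any use of molecular identifiers are not given in the sources used here. The authors' deposited raw table holds whole-number counts of 2632 miRNAs. Their deposited adjusted table, whose making is not stated, was treated as a score and used in an alternative.

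All 14 libraries entered 1 fit of group means (edgeR 4.0.16, R 4.3.3, TMM, glmQLFit robust, filterByExpr with a minimum count of 10, Benjamini-Hochberg adjustment over 47 miRNAs). SE is the absolute log2 fold change over the root of F. The fit was tested on simulated data. Alternatives used RLE or library size scaling, DESeq2 1.42.0, limma 3.58.1 on the adjusted table (log2 CPM, prior count 2), other filters, fewer libraries, the library total, and the replicate block.

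The replicate numbers come from the labels, which do not say what they share. Deviations from group means correlated at 0.183, 0.412 and 0.465 in the 3 pairs with 1 number, and at a mean of −0.108 in the 9 others. As all 3 exceeded 0.1 the numbers were taken to pair these samples, although FGF replicate 2 correlated better with TGFb replicate 1 (0.302). In both groups replicate 2 was the shallowest library and replicate 3 the deepest. Shared depth and another shared factor therefore cannot be told apart in these correlations, nor in the calls made with the block. Deviations were taken from each group's own mean, so the mean of the 9 others is not independent of the 3 pairs. Over all groups, 15 of 18 such pairs exceeded 0.1 and 3 did not. All 9 pairs of replicates within a group differed beyond sampling noise (resampled chi-square test, p = 0.0005, the smallest that 2000 resamples give). No libraries were therefore merged in a fit or test. Pooled shares were used only for miRNAs below the filter.

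Named miRNAs had an unadjusted p under 0.05 or a call with the block, were among the 10 most abundant, or had 1 sign in all numbers without overlap of shares; list members and up to 5 miRNAs found in 1 group were added. miR-1275, let-7a-5p and miR-1307-3p were also named after their values were seen. The comparison, the lists and the tests were chosen with earlier results of these data known. Intervals are Wilson or exact at 95%, and the limit for a count of 0 is 3 counts of the total.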

Additional observations from a re-analysis of the deposited data

Results flagged for a closer look

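miR-125a-5p stood lower in TGFb replicate 1 than in the other TGFb libraries. Its share there was 5.64% (80 of 1418 counts), and the next lowest was 9.91%, a gap of 0.955 of the group's range. 18 sets of 4 TGFb values were examined in this way, and 1 stood apart where chance gives about 0.9 (1 in 20).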

How the results depend on the processing

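Against 0 calls in the fit without a block, the count of differing miRNAs was 2 with the replicate block, 4 with the block in numbers 2 to 4 of these groups alone, 3 in the fit of the 7 libraries alone, 1 with DESeq2 and 1 in limma on the authors' adjusted table. It ran from 0 to 1 over the 14 fits that each left out 1 library, and from 0 to 3 with the block and 1 of the 7 libraries left out. It was 0 with RLE factors, library size, the library total, no expression filter, libraries with 500 counts or more, and a filter on a mean of 10 counts. In the fit of all 14 libraries the block changed the calls of the miR-483 pair and of no other miRNA; the fit of numbers 2 to 4 added miR-125a-5p and let-7e-5p, and the blocked fit without TGFb replicate 1 added miR-125a-5p. The difference in the share of the 10 most abundant miRNAs was 13.4 points in the adjusted table and passed there.

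miR-125b-5p changed sign with RLE factors (−0.076), library size (−0.36), DESeq2 (−0.024) and the adjusted table (−0.25), and miR-92a-3p with library size (−0.14) and the adjusted table (−0.0062). Over the fits without 1 library, log2 fold changes ran from −0.025 to 0.53 for miR-125b-5p, −0.32 to 0.49 for miR-1246, −0.72 to 0.25 for miR-423-5p and −0.40 to 0.35 for miR-320a-3p. With the block and 1 library left out they ran from −0.35 to 0.81 for miR-125b-5p, −0.013 to 0.93 for miR-92a-3p and −0.54 to 0.12 for miR-320a-3p. For miR-1246 they were 0.0073, 0.208 and 0.206 without TGFb replicates 2, 3 and 4, and 0.089, 0.39 and 0.209 without FGF replicates 2, 3 and 4. The cause was not tested. The other 10 named miRNAs kept their direction in every setting that gave a value. Scaling moved the median of the 47 by −0.30 with RLE factors and −0.33 with DESeq2. A filter of at least 10 counts in every library left under 2 miRNAs and gave no value. Depth limits number 2 most, where 231 and 115 counts stood behind each comparison.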
